A study of Gallus gallus with 4 samples.

Results

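Chromosome 20 of the chicken carried 557 of the 10843 condensin peaks in the series, taken as every row on that chromosome in the SMC2 and CAP-H peak lists. The SMC2 list gave 387 of its 6474 peaks and the CAP-H list 170 of its 4369. Both lists come from DT40 cells, a B cell lymphoma line of the chicken, arrested in mitosis with 500 ng/ml nocodazole, a microtubule poison. In one line SMC2, and in the other CAP-H, was knocked out and rescued by a transgene with an SBP tag, which binds streptavidin. Doxycycline at 2 ng/ml kept any untagged copy of that protein off in both lines. Cells were fixed in 1% formaldehyde, and DNA held by the tagged subunit was recovered on streptavidin and sequenced as single reads of 50 bp. Each subunit had 1 pull-down and 1 input library, and the inputs were not analysed here. With no replicates, each interval below is a 95% interval for counting error only, and no difference was checked against replicate spread. The intervals also treat peaks as independent, which neighbouring peaks are not. Read depth is unknown, since the files hold peaks, and the identity of the cells could not be checked against marker genes.

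Condensin is a ring-shaped complex that folds chromatin into loops as chromosomes compact for division. SMC2 is one of its paired ATPases and belongs to condensin I and condensin II alike. CAP-H is the kleisin, the subunit that closes the ring, of condensin I; condensin II has its own kleisin. An SMC2 peak can thus come from either complex and a CAP-H peak only from condensin I. Chromosome 20 is one of the microchromosomes, the short, GC-rich and gene-dense chromosomes of birds.

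The first question was how condensin is spread over the chromosome. Peaks were counted by midpoint along 14301616 bp, the highest coordinate in either list (build galGal4), and the chromosome was crowded at a few places and almost bare at others. SMC2 peaks ran from 19907 to 14301616 and covered 758 kb, or 5.30% of the length. CAP-H peaks ran from 93510 to 14301438 and covered 450 kb, or 3.14%. The segment of 1 Mb from 10000001 to 11000000 was the richest, with 112 SMC2 and 39 CAP-H peaks, or 28.9% of the SMC2 and 22.9% of the CAP-H peaks of the chromosome. The first segment, from 1 to 1000000, came next for SMC2 with 53 peaks but had only 12 CAP-H peaks. A further rise lay between 5000001 and 6000000, with 38 SMC2 and 16 CAP-H peaks. The segment from 7000001 to 8000000 had 2 SMC2 and 2 CAP-H peaks, and that from 3000001 to 4000000 had 4 and 1.

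**Figure D1:**
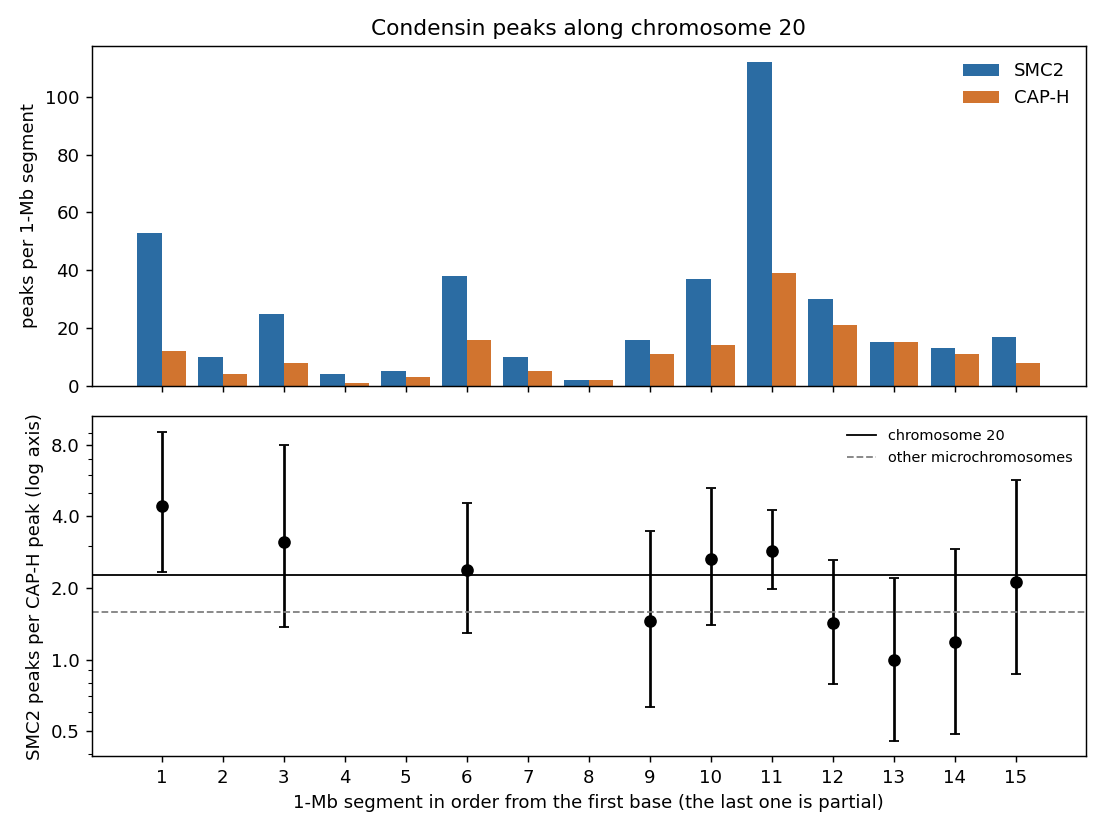
Upper panel: peaks per 1-Mb segment of chromosome 20 for SMC2 (left bar) and CAP-H (right bar), in order along the chromosome. Lower panel: SMC2 peaks per CAP-H peak (log axis) with 95% exact intervals in segments with at least 20 peaks, beside the values of all of chromosome 20 (solid line, 2.28) and of the other microchromosomes (dashed line, 1.58); the first segment is at 4.42 and segments 12 to 14 lie between 1.00 and 1.43.

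Long stretches held no peak of either list. The longest ran from 7218819 to 8053000 (834 kb), from 6214441 to 6666798 (452 kb) and from 3034763 to 3472477 (438 kb). Of the 144 windows of 100 kb, 36 held no peak, 62 held peaks of both lists, 36 held SMC2 peaks alone and 10 held CAP-H peaks alone. SMC2 peaks outnumbered CAP-H peaks in 72 windows and CAP-H peaks outnumbered SMC2 peaks in 22. Empty windows were thus 25% of the total, against 39.6% on the other 17 microchromosomes (11 to 28 without 20) pooled, but by this share chromosome 20 was 10th of the 18 from the highest, with 8 others lower. As a description, the counts of SMC2 and CAP-H peaks per window went together, with Pearson's r of 0.61 and Spearman's rho of 0.56 over the 144 windows, which are neighbours on 1 chromosome.

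The most crowded part of the chromosome lay in its longest unbroken run of occupied windows. From 9500001 to 11600000 all 21 windows in a row held at least 1 peak. Not all of them were rich: the windows from 11400001 and 11500001 held 1 and 3 peaks. This run was 14.7% of the length and held 167 SMC2 peaks (43.2%) and 69 CAP-H peaks (40.6%). SMC2 density was 79.5 peaks per Mb inside the run and 18.03 outside it, and the CAP-H density 32.9 inside and 8.28 outside. Strong SMC2 peaks were gathered there. By the authors' score, which is given for SMC2 alone, 26 of the 32 SMC2 peaks that scored 200 or more lay in the run, and the median score was 89.99 inside and 71.5 outside. The run was picked from the peaks themselves, so these figures describe it and test nothing. SMC2 peaks outnumbered CAP-H peaks 2.42 to 1 inside the run (1.82 to 3.25) and 2.18 to 1 outside it (1.71 to 2.78), an odds ratio of 1.11 whose interval, 0.759 to 1.63, included 1.

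**Figure D2:**
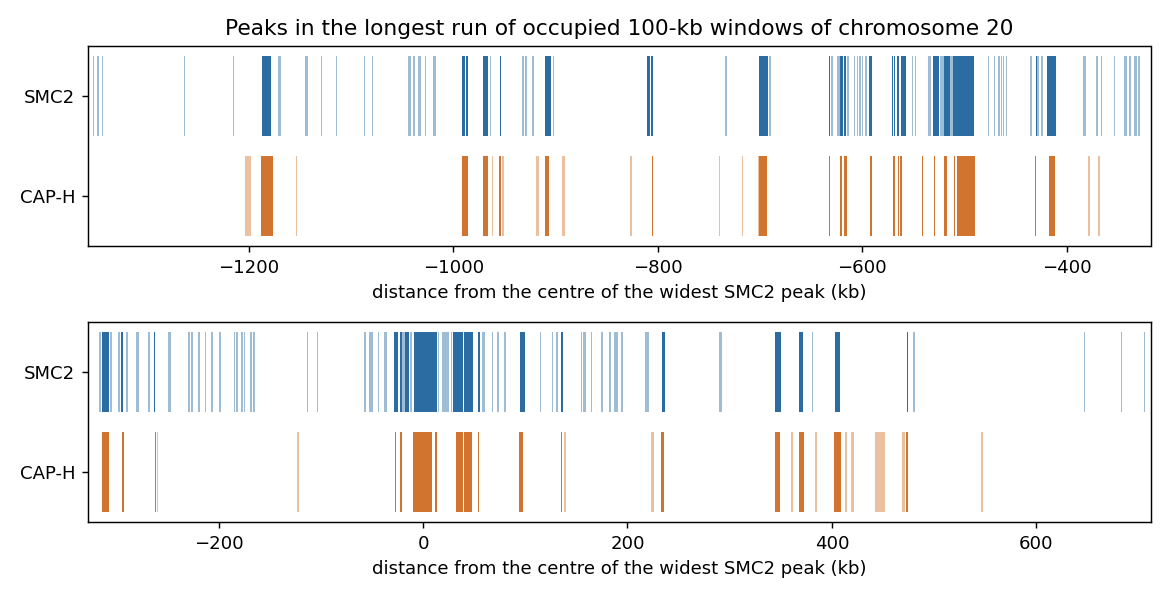
Peaks of SMC2 (upper row) and CAP-H (lower row) in the run of 21 occupied windows, drawn to scale as distance in kb from the centre of the 17.5-kb SMC2 peak, in 2 panels that follow each other. Solid bars overlap a peak of the other list and pale bars do not; most wide SMC2 bars face a CAP-H bar, while many narrow SMC2 bars face none.

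The windows with most SMC2 peaks all lay inside that run. The window from 10300001 to 10400000 had 19 SMC2 and 8 CAP-H peaks, which covered 54.3% and 28.7% of its bases. The window from 10800001 to 10900000 had 17 SMC2 and 5 CAP-H peaks and was covered to 54.9% and 23.5%. Windows from 10200001, 10500001 and 10600001 tied at 15 SMC2 peaks, with 4, 4 and 2 CAP-H peaks. The 5 richest SMC2 windows held 20.9% of SMC2 peaks, and 18 windows held 50% of them.

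The windows with most CAP-H peaks were partly others. The highest count, 8 CAP-H peaks, was found in 3 windows: the window from 10300001 named above, the one from 9900001 with 9 SMC2 peaks, and the one from 11200001 with 5 SMC2 peaks. In the last of these CAP-H peaks covered 24.9% of the bases and SMC2 peaks 14.8%. Windows from 5700001, 8000001 and 10800001 followed with 5 CAP-H peaks each, beside 5, 4 and 17 SMC2 peaks. Some windows had peaks of SMC2 alone: those from 300001 and from 2500001 held 8 SMC2 peaks each and no CAP-H peak, a pair chosen once the counts were known. The richest window with CAP-H peaks alone, from 13600001, held 3.

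The second question was whether the SMC2 and CAP-H lists are in the same balance here as elsewhere. For its length, chromosome 20 held more SMC2 peaks than the other microchromosomes pooled, while the interval for its CAP-H peaks included an equal density. It was not the densest of them: among the 18 microchromosomes it ranked 6th in SMC2 density, below chromosomes 16, 24, 25, 27 and 28 at 44.0 to 78.6 SMC2 peaks per Mb, and 10th in CAP-H density. The pooled value weights each chromosome by its length, and the longest, chromosomes 11, 12 and 13, had 8.25, 5.99 and 7.38 SMC2 peaks per Mb. Chromosome 20 had 27.1 SMC2 peaks per Mb (24.4 to 29.9) and the other microchromosomes 17.8 (17.1 to 18.5), a ratio of 1.52 (1.36 to 1.69). The CAP-H density was 11.9 on chromosome 20 (10.2 to 13.8) and 11.2 on the other microchromosomes (10.7 to 11.8), a ratio of 1.06 (0.899 to 1.24). With peaks at most 2 kb apart merged, the CAP-H ratio was 1.20 (1.001 to 1.43), an interval just above 1. The SMC2 density outside the run of 21 windows was 1.01 times (0.879 to 1.16) that of the other microchromosomes in full, and the CAP-H density was lower, at a ratio of 0.737 (0.597 to 0.901). No rich part was taken from the other chromosomes in that comparison, which was added after the data were seen. With the richest 10% of windows left out of every microchromosome, the SMC2 density ratio was 1.44 (1.24 to 1.66). The CAP-H density ratio was then 1.17 (0.942 to 1.43).

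The same comparison was made with the 3 microchromosomes nearest in length. Chromosomes 14, 15 and 18, of 15.1, 12.6 and 11.2 Mb, had 12.9, 15.6 and 21.5 SMC2 peaks per Mb. Their CAP-H densities were 10.3, 11.5 and 11.96 per Mb. Chromosome 20 was 1.67 times (1.47 to 1.89) as dense in SMC2 peaks as these 3 together and 1.07 times (0.887 to 1.28) as dense in CAP-H peaks.

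The balance of the lists was uneven along the chromosome, highest in the first of 4 equal parts and lowest in the last. Chromosome 20 as a whole had 2.28 SMC2 peaks per CAP-H peak (1.90 to 2.74), against 1.58 (1.49 to 1.68) on the other microchromosomes. In 4 equal parts of the chromosome, in order from its first base, the ratio was 3.75 (2.37 to 6.15), 2.15 (1.33 to 3.57), 2.49 (1.81 to 3.47) and 1.60 (1.16 to 2.22). The odds of a peak being SMC2 were 1.84 times (1.11 to 3.15) as high in the first part as in the rest of the chromosome, and 0.594 times (0.398 to 0.888) as high in the last part. The first part had 90 SMC2 and 24 CAP-H peaks, and the last part 104 SMC2 and 65 CAP-H peaks. Among single segments with at least 20 peaks, the highest ratio was 4.42 (2.33 to 9.08), from 1 to 1000000. The lowest was 1.00 (0.456 to 2.20), from 12000001 to 13000000, where each list had 15 peaks. With SMC2 peaks below the list's median score left out, the odds ratio of the first part was 1.38 (0.767 to 2.53), and with peaks at most 2 kb apart merged that of the last part was 0.691 (0.443 to 1.08). The SMC2 peaks of the first part had a median score of 67.6, against 85.1, 80.5 and 76.0 in the following parts. What part weak SMC2 peaks play in the differences between the parts was not tested further.

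The balance relative to the other microchromosomes was above 1 at every score threshold, with intervals above 1 up to a score of 100. The plain ratio of SMC2 to CAP-H peaks falls by construction as the threshold rises. Only SMC2 peaks have a score, so the CAP-H list was kept whole at each threshold. Chromosome 20 had 1.65 SMC2 peaks per CAP-H peak (1.36 to 2.00) when SMC2 peaks needed a score of 60. The ratio was 1.18 (0.959 to 1.46) at a score of 75 and 0.759 (0.599 to 0.960) at a score of 100, against 0.858 and 0.521 on the other microchromosomes. Relative to the other microchromosomes, the odds of a peak being SMC2 were 1.44 times as high (1.18 to 1.75) with all peaks. They were 1.38 times as high (1.10 to 1.72) when SMC2 peaks needed a score of 75 and 1.46 times as high (1.13 to 1.87) at a score of 100. The value was 1.32 (0.9496 to 1.82) at a score of 150. At a score of 200, which left 32 SMC2 peaks, the value was 1.22 (0.793 to 1.83). The scores themselves had overlapping intervals. The median SMC2 score was 76.6 on chromosome 20 (72.1 to 82.1) and 78.6 on the other microchromosomes (77.2 to 80.4). Merging peaks at most 2 kb apart took the relative balance to 1.22 (0.982 to 1.52), and leaving out the richest 10% of windows of each chromosome took it to 1.23 (0.957 to 1.60).

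**Figure D3:**
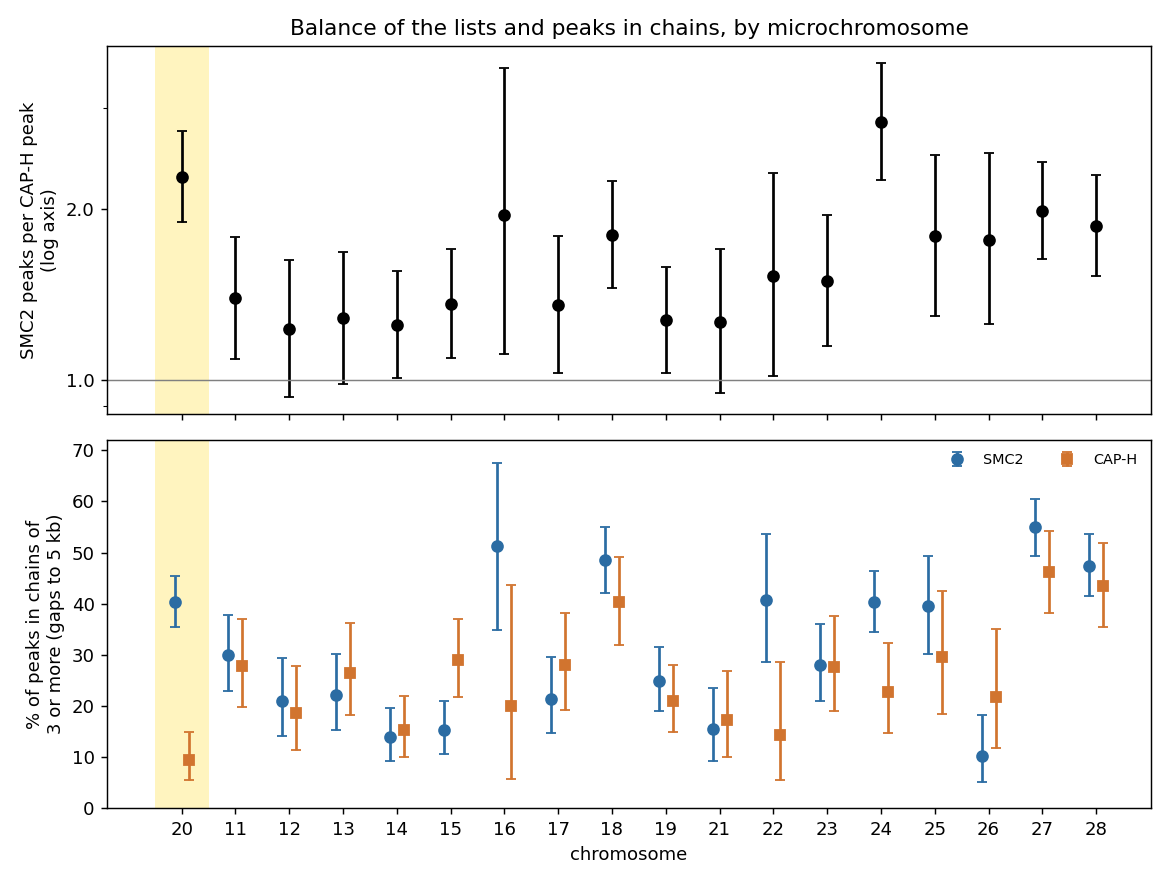
Upper panel: SMC2 peaks per CAP-H peak (log axis) for chromosome 20 (shaded, left) and each other microchromosome. Lower panel: share of SMC2 (circles) and CAP-H peaks (squares) in chains of at least 3 peaks with gaps of at most 5 kb; bars are 95% exact intervals. Chromosome 20 has the second highest balance after chromosome 24 and the lowest CAP-H share in chains, 9.41%, beside an SMC2 share of 40.3%.

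The third question was how peaks follow each other. SMC2 peaks of chromosome 20 were often strung in chains, and CAP-H peaks seldom. A chain was taken as at least 3 peaks of 1 list with gaps of at most 5 kb. A denser list forms more chains by construction, and the shares were not adjusted for density. Chromosome 20 had 27.1 SMC2 and 11.9 CAP-H peaks per Mb, and the other microchromosomes 17.8 and 11.2. Of the 387 SMC2 peaks, 156 lay in 33 chains, or 40.3% (35.4 to 45.4), while 16 of the 170 CAP-H peaks lay in 5 chains, or 9.41% (5.48 to 14.8). On the other microchromosomes 33.0% of SMC2 peaks (31.3 to 34.8) and 28.2% of CAP-H peaks (26.1 to 30.3) were in chains. The odds for an SMC2 peak were 1.37 times as high on chromosome 20 (1.09 to 1.71), and those for a CAP-H peak 0.265 times as high (0.146 to 0.450). The CAP-H share was the lowest among the 18 microchromosomes, where the others ranged from 14.3% to 46.2%. The SMC2 share was the 7th highest.

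Chaining of CAP-H stayed low for the chromosome with other settings of the gap. The odds ratio for CAP-H was 0.206 (0.081 to 0.440) with gaps of at most 2 kb and 0.547 (0.375 to 0.786) with gaps of at most 10 kb. Against chromosomes 14, 15 and 18 alone it was 0.273 (0.146 to 0.482). With chromosomes 18, 27 and 28 left out of the other microchromosomes it was 0.3465 (0.190 to 0.592). Chromosome 14, the nearest in length, had 15.4% of its CAP-H peaks in chains (10.1 to 22.0). For SMC2 the odds ratio was 1.09 (0.819 to 1.42) with gaps of at most 2 kb. It was 1.16 (0.832 to 1.60) for peaks at or above the median score, and both intervals included 1. With gaps of at most 10 kb the SMC2 odds ratio was 1.38 (1.11 to 1.72). Against chromosomes 14, 15 and 18 alone it was 1.78 (1.35 to 2.35). With chromosomes 18, 27 and 28 left out of the other microchromosomes it was 1.96 (1.55 to 2.48). Neighbouring peaks are not independent of each other, and these intervals treat them as if they were. The median gap between neighbours was 8.24 kb for SMC2 on chromosome 20 and 12.5 kb on the other microchromosomes. For CAP-H it was 21.1 kb on chromosome 20 and 17.1 kb on the other microchromosomes.

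The 3 SMC2 chains with most peaks lay in the crowded run. The first, from 10237354 to 10279835, strung 14 SMC2 peaks over 42.5 kb, of which 5 overlapped a CAP-H peak. The second, from 10841933 to 10918803, had 14 SMC2 peaks over 76.9 kb that covered 84.4% of the bases, with 7 CAP-H peaks among them. It held the second strongest SMC2 peak of the chromosome, with a score of 1396. The third, from 10329239 to 10379778, had 12 SMC2 peaks over 50.5 kb, and 8 of them overlapped a CAP-H peak, of which the chain had 5. With both lists pooled the same places led, with 21, 18 and 17 peaks in the second, the first and the third.

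The CAP-H chains were short and differed in their SMC2 partners. The one with most peaks, from 12413721 to 12423177, had 4 CAP-H peaks over 9.46 kb, and no SMC2 peak touched it. Chains of 3 CAP-H peaks ran from 2480912 to 2489369 and from 10300015 to 10308698, and each of their peaks overlapped SMC2. A further chain of 3, from 10842866 to 10855088, lay within the second SMC2 chain named above and was shared in full. The last, from 11272023 to 11291668, had the greatest span of these chains, 19.6 kb, and shared 1 of its 3 CAP-H peaks.

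The fourth question was how wide and how strong the peaks are. Peaks of both subunits were wider on chromosome 20 than on the other microchromosomes pooled, and the widest of all coincided. The median width was 1589 bp for SMC2 (1491 to 1690), against 1135 bp (1111 to 1151) on the other microchromosomes. For CAP-H it was 1940.0 bp (1730.0 to 2243) on chromosome 20, against 1462 bp (1412 to 1523) on the other microchromosomes. Among the 18 microchromosomes, chromosome 20 ranked 2nd by SMC2 median width, below chromosome 16 at 1655 bp, and 1st by CAP-H median width. Chromosome 24 had overlapping intervals in both lists, at 1523 bp (1464 to 1584) for SMC2 and 1801 bp (1452 to 2327) for CAP-H. Other chromosomes overlapped for CAP-H too, among them 18 at 1713 bp (1452 to 2003) and 22 at 1752.5 bp (1353 to 2042). The median width of SMC2 peaks was greater at each level of score: in 4 score classes, each 25% of the whole SMC2 list, their median width from the lowest to the highest class was 1139.5, 1345.5, 1767 and 2356 bp on chromosome 20, against 845, 954, 1137.5 and 1843.5 bp on the other microchromosomes. Peaks of at least 5 kb made up 3.10% of the SMC2 list on chromosome 20 (12 peaks) and 1.36% on the other microchromosomes (38 peaks), an odds ratio of 2.32 (1.09 to 4.59). Against chromosomes 14, 15 and 18 alone it was 1.99 (0.780 to 5.20), an interval that includes 1. For CAP-H they made up 10% on chromosome 20 (17 peaks) and 5.04% on the other microchromosomes (89 peaks). The odds ratio was 2.09 (1.14 to 3.65), and against chromosomes 14, 15 and 18 alone 2.30 (1.10 to 4.76). Some single chromosomes had higher shares: 16 and 18 for SMC2 (15.4% and 3.32%), and 16 and 24 for CAP-H (15% and 12.4%).

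The 10 widest SMC2 peaks all lay in the crowded run and all overlapped a CAP-H peak. Over all chromosomes 31.0% of SMC2 peaks of any width did so, and the share of equally wide peaks elsewhere was not computed. The widest pair, an SMC2 peak of 17.5 kb from 10861505 to 10879048 and its CAP-H partner of 18.1 kb, had nearly the same edges, and CAP-H covered 98.7% of the SMC2 peak. The next SMC2 peak, of 16.7 kb from 10363050 to 10379778, was covered to 100% by CAP-H over 17.1 kb, although its score was only 60.46. Then came SMC2 peaks of 9.80 kb from 10899548 to 10909342, of 8.86 kb from 10169126 to 10177983 and of 8.83 kb from 9682954 to 9691782. CAP-H covered 69.9%, 89.2% and 98.3% of these. The others, of 8.62, 6.79, 5.33, 5.31 and 5.21 kb, began at 10910185, 10556473, 10307720, 10964926 and 10450926.

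Of the 10 widest CAP-H peaks, 4 had little or no SMC2 overlap, and 3 of these lay past the run. The peak from 11312829 to 11321796 (8.97 kb), inside the run, and that from 11929594 to 11938092 (8.499 kb), past it, overlapped no SMC2 peak. SMC2 covered 24.8% of the CAP-H peak from 11947912 to 11958022 (10.1 kb) and 21.0% of that from 12852242 to 12861514 (9.27 kb). The remaining 6 of the 10 widest were matched over 66.2% to 100% of their bases. Besides the peaks of 18.1 and 17.1 kb, they were those of 9.95 kb from 9683859, 8.49 kb from 10910178, 7.90 kb from 10169298 and 6.91 kb from 11272023.

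The strongest SMC2 peaks were all shared, but in some the CAP-H partner was small. The highest score, 2807, belonged to a peak of 4.72 kb from 14233921 to 14238636, 63.0 kb from the highest coordinate, and it was the only one of the 10 outside the run. CAP-H covered 98.3% of it. Scores of 1396 and 974 followed, for the peaks from 10910185 to 10918803 and from 9682954 to 9691782, covered to 98.4% and 98.3%. The peak from 10852310 to 10856827 had a score of 843 but was covered by CAP-H to only 20.7%. That from 10307720 to 10313045, with a score of 439, was covered to 18.4%. The other 5, with scores from 402 to 536, began at 10169126, 10879308, 9899163, 10964926 and 10450926 and were covered to between 44.8% and 90.2%. Of the 10 strongest, 6 were also among the 10 widest, and over all 387 SMC2 peaks score and width rose together, with a Spearman's rho of 0.67 as a description within 1 library.

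**Figure D4:**
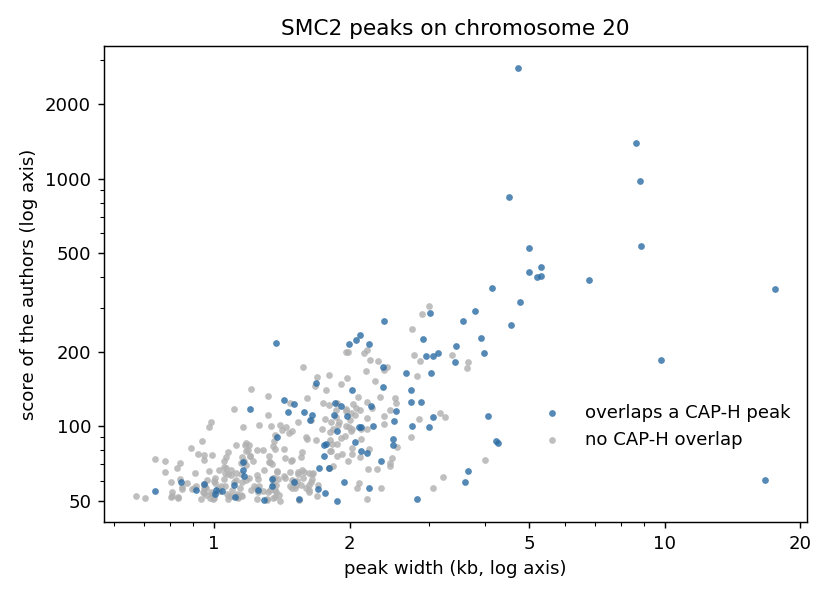
Width (kb) and score of each of the 387 SMC2 peaks on chromosome 20, both on log axes; dark points overlap a CAP-H peak and grey points do not. All 12 peaks of at least 5 kb overlap CAP-H, including the peak of 16.7 kb at a score of 60.46, and no unshared peak is wider than 3995 bp.

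The first and the last SMC2 peak of the chromosome both scored above the upper quartile of its SMC2 peaks, 113.9. The first, from 19907 to 23275, had a score of 194 and no CAP-H partner. The last, from 14298875 to 14301616, had a score of 140 and overlapped the last CAP-H peak, from 14300407 to 14301438. The first CAP-H peak, from 93510 to 95104, overlapped an SMC2 peak. Within 500 kb of the first base there were 25 SMC2 and 6 CAP-H peaks, and within 500 kb of the highest coordinate 18 SMC2 and 10 CAP-H peaks.

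The last question was how far the sites of the subunits coincide. Most CAP-H peaks of chromosome 20 had an SMC2 partner, and most SMC2 peaks had no CAP-H partner. An overlap of at least 1 bp was found for 105 SMC2 peaks, or 27.1% (22.8 to 31.9), beside 31.0% of SMC2 peaks over all chromosomes. It was found for 101 CAP-H peaks, or 59.4% (51.6 to 66.9), beside 42.4% of CAP-H peaks over all chromosomes. On the other microchromosomes the shares were 36.6% of SMC2 (34.8 to 38.4) and 52.7% of CAP-H peaks (50.4 to 55.1). The odds of sharing were 0.645 times as high on chromosome 20 for SMC2 (0.504 to 0.821) and 1.31 times as high for CAP-H (0.942 to 1.83). By its SMC2 share chromosome 20 was 16th of the 18 microchromosomes from the highest, above chromosomes 24 (25.8%) and 26 (20.6%). By its CAP-H share it was 6th, and chromosome 24 had 67.0%. Where an overlap of 50% of both peaks was asked for, the SMC2 odds ratio was 0.836 (0.617 to 1.12). In bases, the lists shared 234 kb, which was 30.9% of what SMC2 covered and 52.1% of what CAP-H covered.

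Sharing of SMC2 was lower, with intervals of the odds ratio below 1, in the highest score class and the one below it. In the highest of the 4 score classes, 56 of 110 peaks on chromosome 20 were shared, or 50.9% (41.2 to 60.6), against 68.4% (65.1 to 71.7) on the other microchromosomes. The odds ratio was 0.479 (0.314 to 0.731). In the class below it 20% were shared on chromosome 20 and 33.7% on the other microchromosomes, an odds ratio of 0.493 (0.275 to 0.847). In the lowest class the odds ratio was 1.16 (0.624 to 2.06) and in the one above it 0.657 (0.315 to 1.26), and whether the classes differ from each other was not tested. Of the 32 SMC2 peaks on chromosome 20 that scored 200 or more, 27 were shared, beside 31.0% of SMC2 peaks of any score over all chromosomes. The share at this score was not computed for the other microchromosomes, so the count does not say whether it is low or high. Against chromosomes 14, 15 and 18 the odds ratio of the highest class was 0.444 (0.266 to 0.736). Against all the other microchromosomes, with an overlap of 50% of both peaks asked for, it was 0.746 (0.479 to 1.15). With more SMC2 than CAP-H peaks each SMC2 peak has fewer possible partners, and the part of that balance in the lower share was not tested.

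**Figure D5:**
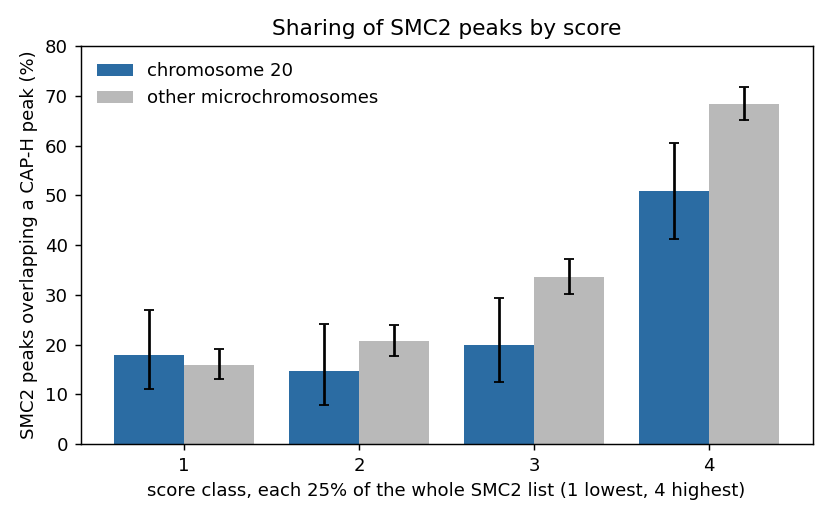
Share of SMC2 peaks that overlap a CAP-H peak, in 4 classes of score that each hold 25% of the whole SMC2 list, on chromosome 20 (left bars) and on the other microchromosomes (right bars), with 95% exact intervals. In the highest class the share is 50.9% on chromosome 20 and 68.4% on the other microchromosomes.

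Shared peaks had the greater median width in both lists, and the higher median score in the SMC2 list, which alone has scores. Shared SMC2 peaks had a median width of 2209 bp (1978 to 2668) and unshared ones of 1423 bp (1356 to 1523). Their median scores were 110.5 (95.7 to 125.7) for shared and 71.6 (66.4 to 75.4) for unshared peaks. All 12 SMC2 peaks of at least 5 kb were shared, as were 22 of the 31 between 3 and 5 kb, but only 4 of the 48 under 1 kb. Of the CAP-H peaks, 14 of 17 were shared at 5 kb or more, or 82.4% (56.6 to 96.2), and 14 of 24 under 1 kb, or 58.3% (36.6 to 77.9). The CAP-H share did not rise steadily with width, since it was lowest, at 30 of 64, between 1 and 2 kb. A wide peak has more room to overlap by construction. The shares in these width classes were not computed for the other microchromosomes, so the counts do not say whether they are low or high. Shared CAP-H peaks had a median of 2274 bp (1923 to 2450) and unshared ones of 1645 bp (1520 to 1937).

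Sharing of SMC2 peaks was low at the first bases, where SMC2 prevailed. From 1 to 1000000, 7 of 53 SMC2 peaks were shared, or 13.2% (5.48 to 25.3), and 7 of 12 CAP-H peaks. In the first of the 4 equal parts 14.4% of SMC2 peaks were shared (7.92 to 23.4), against 32.1% (20.3 to 46.0), 27.01% (19.8 to 35.3) and 35.6% (26.4 to 45.6) in the following parts. The CAP-H shares in the same order were 54.2%, 69.2%, 60% and 56.9%. With 90 SMC2 and 24 CAP-H peaks in the first part, SMC2 peaks had few possible partners there. What part this has in the low SMC2 share was not tested. Of the CAP-H peaks from 10000001 to 11000000, 31 of 39 were shared, and of those from 8000001 to 9000000, 3 of 11.

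Where peaks coincided they did so mostly in pairs. There were 84 pairs in which each peak had no other partner, while 5 SMC2 peaks had 2 CAP-H partners and 9 CAP-H peaks had 2 SMC2 partners. In 42 of the 84 pairs CAP-H was the wider, and the median ratio of CAP-H to SMC2 width was 1.01 (interquartile range 0.647 to 1.32). The midpoints lay a median of 356 bp apart, and within 500 bp in 52 pairs. CAP-H enclosed SMC2 in 26 pairs and lay within it in 23. Unshared peaks were seldom near misses: 11 of 282 unshared SMC2 peaks and 4 of 69 unshared CAP-H peaks lay within 500 bp of the other list. The median distance to the nearest CAP-H peak was 24.4 kb for unshared SMC2 peaks, and that to the nearest SMC2 peak was 8.37 kb for unshared CAP-H peaks.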

How the data were processed

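Peaks of the SMC2 and the CAP-H pull-down of mitotic DT40 cells were read from the deposited lists, 1 list and 1 library for each subunit. BWA and galGal4 are the tool and build in the submitters' processing notes; peaks bear names of the MACS kind, per the content of the files, while the caller's version, its control and its cutoff were not stated in the sources used here. The score in the deposited SMC2 list is the authors' own value, from 50.02 to 3100, and its form is not explained there; the CAP-H list has none. Some starts are 0, so starts were read as counted from 0 and are printed from 1. Profiles around start sites name no chromosome and were not used, and no genome or annotation of galGal4 was at hand, so no gene or sequence is given.

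Peaks were placed in windows by midpoint. Shares have Clopper-Pearson, counts Poisson, ratios exact conditional, odds ratios exact conditional and medians order-statistic intervals at 95%, which cover counting error alone. All of them treat peaks as independent. The finding of overlaps and chains was tested on simulated peaks, and the intervals of ratios and medians on simulated draws. The other steps were not tested in that way. Python 3.11.15, numpy 2.4.6, pandas 2.3.3, scipy 1.17.1 and matplotlib 3.10.9 were used. Named regions were the 10 strongest and widest peaks, and the 5 richest windows and the 3 chains with most peaks of each list. The 3 longest free stretches and the first and last peaks were named too, and ties were named in full. The chromosome, lists and tests were chosen with earlier results of these data known.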

Additional observations from a re-analysis of the deposited data

How the results depend on the processing

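Of 65 values recomputed under other settings for 19 results, 41 kept their direction and their side of the threshold, or lay within the interval or within 1.5 times the count first given. With SMC2 peaks at or above the median score, SMC2 peaks per CAP-H peak were 1.21 (0.979 to 1.49), the SMC2 and CAP-H shares that overlapped 36.6% and 43.5%, the median SMC2 width 2018 bp, the SMC2 share in chains 32.2%, the SMC2 chain odds ratio 1.16 and the odds ratio of the first of the 4 parts 1.38. With peaks at most 2 kb apart merged, the relative balance was 1.22, the CAP-H density ratio 1.20 (1.001 to 1.43, so above 1), the median SMC2 width 1801 bp and the median CAP-H width 2256.5 bp, and the odds ratio of the last part 0.691. Without the richest 10% of windows the relative balance was 1.23, while the SMC2 density ratio was 1.44 (1.24 to 1.66). Without the run of 21 windows, and with nothing taken from the other chromosomes, the SMC2 density ratio was 1.01. The CAP-H density ratio then turned to 0.737. With an overlap of 50% of both peaks SMC2 sharing was 16.3% and CAP-H sharing 37.1%, and the sharing odds ratios were 0.836 for SMC2 and 0.746 for its highest score class. With chain gaps of 2 and 10 kb the shares in chains were 19.9% and 54.5% for SMC2 and 4.12% and 26.5% for CAP-H, and at 2 kb the SMC2 odds ratio was 1.09. A longer list or looser gap gives more overlaps and chains by construction. Leaving out SMC2 peaks alone likewise lowers their number per CAP-H peak. The cause of the other changes was not tested. The settings for the run, the 4 parts, the chain odds and the highest score class were added after the data were seen. No paired analysis was possible because each pull-down had 1 library. Read depth, which is unknown here, sets which weak peaks a list can hold.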
